A study of Cephalotaxus fortunei with 9 samples.

Results

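In the conifer Cephalotaxus fortunei, 147 of 37051 transcripts were abundant in stem and root and scarce in leaf. They were chosen from the deposited TPM values (TPM is an abundance scaled by transcript length, with the same sum in every library). A transcript was included when it reached at least 10 TPM in each of the 3 stem and 3 root libraries, when its mean stem and mean root TPM lay within 5-fold of each other, and when its mean leaf TPM was at most 20% of the smaller of those means. The stem and root conditions alone were met by 4824 transcripts, so the leaf-depleted ones made up 3.05% of them. All levels and all contrasts between tissues in these libraries entered the choice. The levels are therefore given as a description, without a test.

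The series holds poly(A)-selected RNA from leaf, stem and root, with 3 libraries per tissue, from a study of enzymes of the cephalotaxine and homoerythrina alkaloid pathways. The labels give tissue and replicate number, and neither the age or number of plants nor a treatment. It is not stated that the replicates are separate plants, so their spread may be technical in part. Transcripts carry running numbers without gene names or sequences, so no marker list could be applied and the transcripts are described by their numbers, lengths and values. The tissue labels were likewise not checked against marker genes.

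Stem and root form the woody axis of a conifer. Both carry water-conducting xylem, sugar-conducting phloem, cambium and protective outer tissues, while the leaf is mainly photosynthetic tissue around a vascular strand. Conifer bark, wood and roots are also known to hold phenolic and terpenoid compounds. This is general background, and none of it could be assigned to a numbered transcript. In RNA from whole organs, fewer cells of a type and less RNA per cell cannot be told apart.

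The leaf libraries summed to 12809484 to 14606814 estimated reads, the stem libraries to 18417327 to 19652495 and the root libraries to 7117807 to 8093638. The difference between root replicates 1 and 2 was smaller than sampling noise: their chi-square per degree of freedom was 0.528, against 14.6 to 29.5 in every other pair of libraries of a tissue. They were averaged and counted as 1 sample, which leaves 2 root samples. Root replicate 3 stood apart from them, with 2606 transcripts at 0 reads against 8705 and 8747. Without root replicate 3, in the minimum as well as in the mean, 176 transcripts met the rule, 143 of them among the 147. Without root replicates 1 and 2 in either, 160 met it, of which 143 were among the 147.

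Together the 147 transcripts made up 0.0946% ± 0.00394 of all TPM in the leaf libraries (SD, n = 3). They made up 1.80% ± 0.0291 of all TPM in the stem libraries (SD, n = 3) and 1.94% ± 0.355 of that in the root samples (SD, n = 2). Their median level was 2.18, 2.27 and 2.34 TPM in the leaf libraries, 37.8, 40.2 and 40.3 TPM in the stem libraries, and 42.7, 43.4 and 39.2 TPM in the root libraries. The leaf libraries stood far below the others, and the stem and root medians overlapped. Between 99 and 105 of the transcripts reached 1 TPM in a leaf library. The reads behind these values numbered 9205 to 10799 per leaf library, 259421 to 281887 per stem library and 108546 to 136201 per root library.

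**Figure D1:**
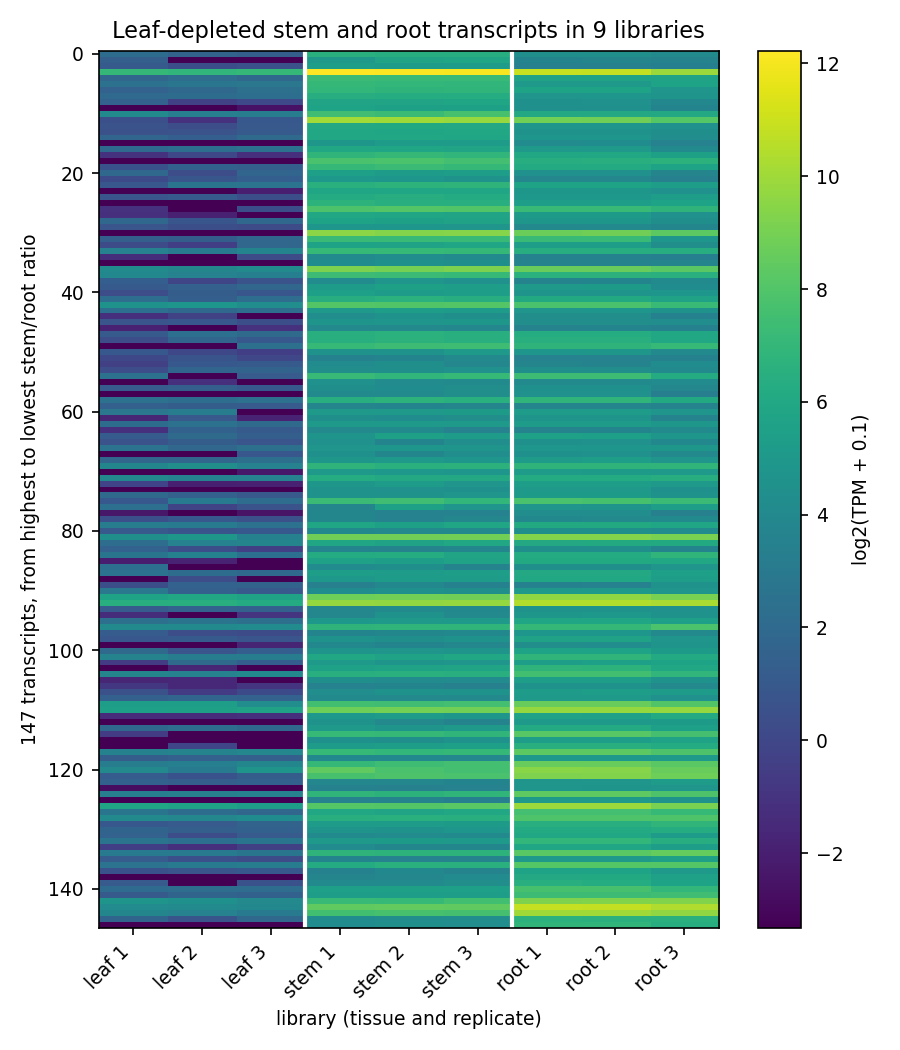
Abundance of the 147 leaf-depleted transcripts (rows, ordered from highest to lowest ratio of mean stem to mean root TPM) in the 9 libraries (columns), as log2(TPM + 0.1). The 3 leaf columns are darker than the 6 others in every row, and the balance of stem and root runs from stem-rich rows at the top to root-rich rows at the bottom.

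The 10 most abundant transcripts, ranked by the smaller of their stem and root means, held 43.1% to 44.6% of the group's TPM in leaf, 53.2% to 54.6% in stem and 40.6% to 44.0% in root. Of these, 7 were shorter than 500 bases. Transcripts_31033 (628 bases) led the group. It had 130, 121 and 130 TPM in the leaf libraries, 4786, 4448 and 4375 TPM in the stem libraries, and 1907, 1883 and 937 TPM in root replicates 1, 2 and 3. Every leaf value lay below every stem and root value, and root replicate 3 was the lowest of the root libraries. The leaf mean was 2.80% of the stem mean and 8.96% of the root mean. This transcript alone made up 24.7% to 26.1% of the group's TPM in the stem libraries.

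Transcripts_23424 (324 bases) had 90.1, 88.3 and 76.4 TPM in leaf, 856, 826 and 876 TPM in stem, and 1394, 1370 and 1221 TPM in root. Unlike the leading transcript it was higher in TPM in every root library than in any stem library. That direction turned in the model of read counts with TMM scaling described below, where stem minus root was 0.51 on the log2 scale. With library totals it turned back to -0.13. The adjusted p of edgeR's quasi-likelihood test was 0.0035 with TMM scaling and 0.216 with library totals, so the second sign was not distinguished from no difference. The effective length of this transcript, by which Salmon divides, averaged 138 bases in stem and 81.6 bases in root. Transcripts_22792 (298 bases) was more uneven between stem and root, with 18.4, 17.2 and 15.2 TPM in leaf, 345, 356 and 349 TPM in stem, and 1820, 1795 and 1315 TPM in root. Its root mean was 4.46 times its stem mean in TPM, close to the limit of the rule. It was lower in stem in the read-count model too, by a log2 difference of -0.82 with TMM scaling and -1.46 with library totals.

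Transcripts_30585 (416 bases), transcripts_21908 (348 bases), transcripts_27006 (350 bases) and transcripts_31520 (290 bases) likewise had lower mean TPM in stem than in root. Their leaf means ran from 20.9 to 54.4 TPM, their stem means from 285 to 476 TPM and their root means from 592 to 860 TPM. In the read-count model with TMM scaling the estimates of all 4 were instead above root in stem. The log2 differences were 0.09 for transcripts_30585 (adjusted p 0.383, edgeR's quasi-likelihood test) and 0.89 for transcripts_21908 (0.018). They were 0.74 for transcripts_27006 (0.0077) and 0.53 for transcripts_31520 (0.068). For transcripts_30585 and transcripts_31520 the sign was thus not distinguished from no difference. With library totals, stem was above root in transcripts_21908 (0.25) and transcripts_27006 (0.11) and below it in transcripts_30585 (-0.55) and transcripts_31520 (-0.10). Under that scaling only transcripts_30585 had an adjusted p under 0.05 in the same test (0.0015). Transcripts_31520 was the least depleted of the 10, with a leaf mean at 16.9% of the stem mean. Transcripts_8735 (395 bases) averaged 15.7 ± 2.08 TPM over the leaf libraries (SD, n = 3), 541 ± 34.0 TPM over the stem libraries (SD, n = 3) and 345 ± 59.5 TPM in root (SD, n = 2).

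Transcripts_8559 (927 bases) was much lower in leaf than the others with leaf reads among these 10. It had 1.26, 0.370 and 1.88 TPM in the leaf libraries, 1090, 1047 and 920 TPM in the stem libraries, and 473, 461 and 284 TPM in the root libraries. The stem mean was 871 times the leaf mean and the root mean 321 times the leaf mean, on 27.0 estimated leaf reads in all.

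Transcripts_27016 (2083 bases) had no read in any leaf library. It stood at 734, 645 and 673 TPM in stem, on 106845 estimated reads in all, and at 427, 455 and 323 TPM in root, on 21183 reads. Against a floor of 3 reads over the leaf libraries it was at least 26147-fold lower in leaf than in stem and at least 14609-fold lower than in root. Floors and the intervals below cover counting error only. The reads of this transcript were not whole numbers in any of the 6 stem and root libraries, as happens when Salmon divides reads between transcripts of like sequence.

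**Figure D2:**
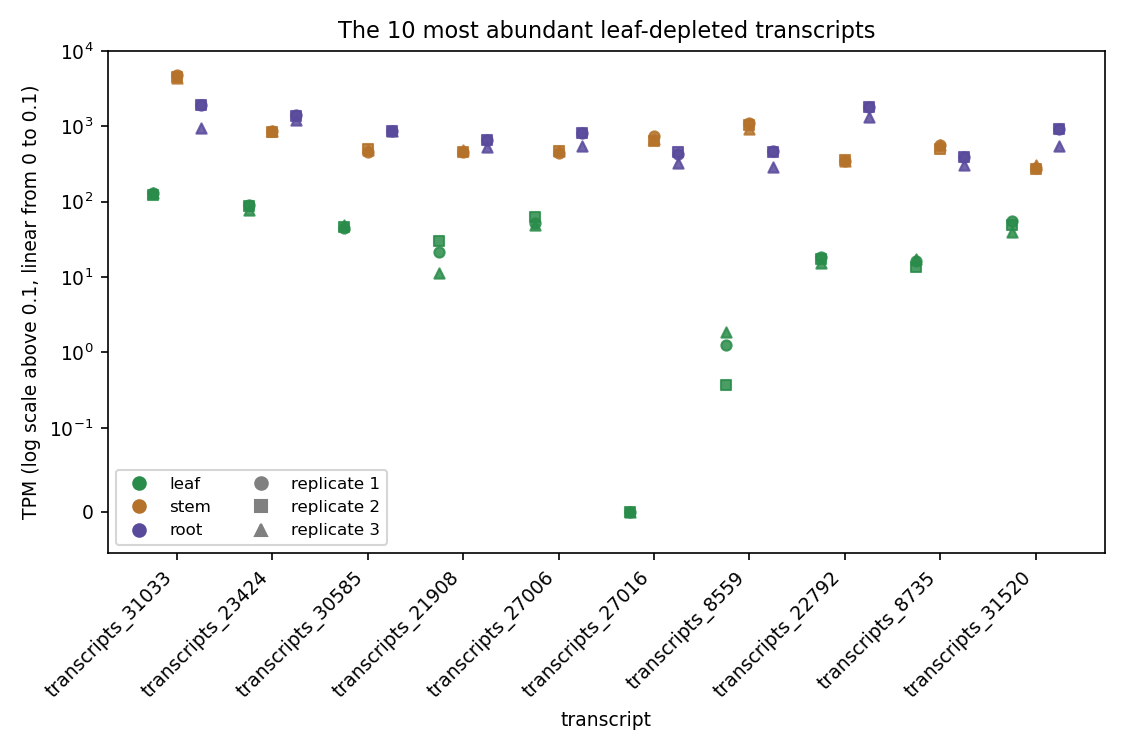
TPM of the 10 most abundant leaf-depleted transcripts in each library. Points are single libraries, coloured by tissue and shaped by replicate; the vertical axis is logarithmic above 0.1 TPM and linear from 0 to 0.1 TPM. Within each transcript the leaf points lie below the stem and root points, from 130 TPM in transcripts_31033 to 0 in transcripts_27016.

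The degree of depletion covered a wide range. The smaller of the stem and root means was 5 to 10 times the leaf mean in 59 transcripts, at least 10 times in 88, at least 20 times in 52 and at least 100 times in 29. The leaf mean was under 1 TPM in 40 transcripts, 1 to 10 TPM in 82 and at least 10 TPM in 25. Among the 4824 transcripts that met the stem and root conditions, 353 were at least 2 times and 184 at least 4 times above leaf in both tissues, so 37 fell between 4 and 5 times. The median leaf level was 5.96% of stem and 5.38% of root in the depleted transcripts, and 120% of stem and 126% of root in the 4677 others.

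Around the limit of the rule the ratios lay close together. Just inside it, the smaller mean was 5.16 times leaf in transcripts_30722 (1579 bases), 5.24 times in transcripts_3638 (1210 bases) and 5.25 times in transcripts_34900 (2042 bases). Just outside it, the ratio was 4.95 in transcripts_19202 (1764 bases), 4.90 in transcripts_26139 (1166 bases) and 4.90 in transcripts_9553 (2317 bases). Transcripts_3638 had 41.9, 42.6 and 19.9 TPM in leaf, 180, 179 and 188 TPM in stem, and 386, 385 and 261 TPM in root, so that leaf replicate 3 was the lowest of its leaf libraries.

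**Figure D3:**
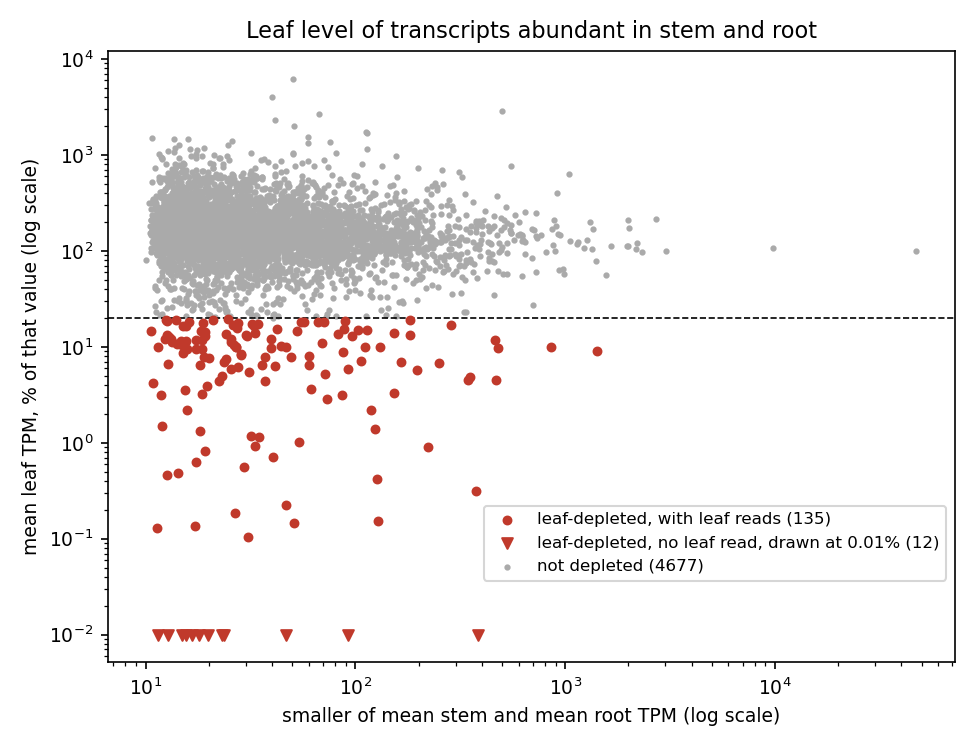
Mean leaf TPM as a percentage of the smaller of the stem and root means, against that smaller mean in TPM (both axes logarithmic), for transcripts that met the stem and root conditions. Red points are the 135 leaf-depleted transcripts with leaf reads, red triangles the 12 without (drawn at 0.01%), and grey points the 4677 not depleted; the dashed line marks 20%.

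Leaf reads were absent in all 3 libraries for 12 transcripts, and 10 more had 1 to 3 leaf reads in all. The 12 were mostly of low abundance: the smaller mean was under 20 TPM in 7 of them. Besides transcripts_27016, the most abundant were transcripts_27749 and transcripts_17807. Transcripts_17807 (2239 bases) had 104, 89.2 and 88.1 TPM in stem and 42.5, 42.3 and 50.8 TPM in root. It was at least 3106-fold lower in leaf than in stem and at least 1542-fold lower than in root. Transcripts_27749 (210 bases) had 219, 222 and 189 TPM in stem and 83.0, 84.8 and 99.7 TPM in root, yet only 629 stem reads and 57.1 root reads in all. It was at least 150-fold lower in leaf than in stem and at least 65.3-fold lower than in root.

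Other transcripts of the strongest depletion had traces of leaf reads. Transcripts_12642 (1301 bases) had 0.580, 0 and 0 TPM in leaf, 134, 131 and 117 TPM in stem, and 289, 290 and 202 TPM in root. Transcripts_8694 (564 bases) had 1 leaf read in all. Its stem mean of 50.8 TPM was 678 times the leaf mean (exact Poisson 95% interval of the leaf read count, 122 to 26786), and its root mean of 85.1 TPM was 1137 times the leaf mean (204 to 44897).

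The division of reads between like sequences touches these values. Fractional reads occurred in each of the 6 stem and root libraries for 11 of the 12 transcripts without leaf reads, for 84 of the 135 with leaf reads (62.2%), and for 2683 of the 4677 transcripts not depleted in leaf (57.4%). A 0 in leaf therefore does not show that no similar transcript had leaf reads. The part of divided reads in the zeros was not tested.

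For 20 of the 147 transcripts the reads were whole numbers in all 9 libraries, within 0.001 of a read. In these the leaf mean was 0.0236 to 3.91 TPM (median 1.53), the stem mean 12.4 to 140 TPM (median 19.4) and the root mean 12.8 to 75.6 TPM (median 32.4). The smaller mean was at least 10 times leaf in 13 of the 20. The most abundant of them, named after its values were seen, was transcripts_34561 (1128 bases), with 1.17, 3.26 and 1.81 TPM in leaf, 86.8, 100 and 87.9 TPM in stem, and 85.5, 84.6 and 60.9 TPM in root. The lowest in leaf, also named afterwards, was transcripts_26215 (948 bases), with 1 leaf read against 3100 stem reads and 567 root reads. None of the 10 most abundant transcripts of the group had whole reads in all libraries.

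The leaf libraries varied more among themselves than the stem libraries for these transcripts. The coefficient of variation over the 3 leaf libraries had a median of 32.7% in the 135 transcripts with leaf reads; the median of leaf reads was 58.8 over all 147. Over the 3 stem libraries the coefficient of variation had a median of 7.32%, on a median of 1809 reads. In the transcripts not depleted in leaf, the medians were 7.10% in leaf and 6.47% in stem, on 2807 and 3273 reads. The share of counting error in the leaf spread was not tested.

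A leaf library without a read stood beside a leaf mean of at least 1 TPM in 5 transcripts. Of these, the 3 of lowest running number are described here. Transcripts_6819 (2461 bases) had 0, 0 and 5.17 TPM in leaf, 136, 159 and 170 TPM in stem, and 111, 111 and 136 TPM in root. Its 152 estimated leaf reads all came from leaf replicate 3. Transcripts_9479 (854 bases) had leaf reads in leaf replicate 1 only, with 5.03, 0 and 0 TPM in leaf, 18.3, 21.7 and 12.4 TPM in stem, and 21.3, 21.2 and 27.3 TPM in root. Transcripts_5502 (276 bases) had 2.08, 0 and 1.43 TPM in leaf on 5 reads, 16.8, 17.4 and 20.02 TPM in stem, and 86.3, 77.7 and 51.2 TPM in root. Reads were not whole numbers in 7 libraries for transcripts_6819 and in 7 for transcripts_9479. For transcripts_5502 they were whole in all libraries. The part of divided reads in these uneven leaf values was not tested.

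All leaf values of each of the 147 transcripts lay below all its stem and root values. That was true of 8.06% of the 24564 transcripts with enough reads for a test. The rule used these values, so the comparison only describes the choice. In 118 of the 147, the highest leaf library was at most 20% of the lowest stem or root library.

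A library left out of the choice gave values that the choice had not used, but they were set against means of the other tissues that it had used. When the rule was applied without leaf replicate 1, 156 transcripts were chosen, and 132 of them (84.6%) were also at or under 20% in leaf replicate 1. The same was true of 140 of 156 (89.7%) in leaf replicate 2 and of 140 of 152 (92.1%) in leaf replicate 3. Of the transcripts that met the stem and root conditions and had not been chosen, 0.407% to 0.514% were as low in the leaf library left out. For a stem library left out, 93.6% to 97.3% of the chosen transcripts reached both 10 TPM and 5 times the leaf mean in it, beside 1.503% to 1.79% of those not chosen. For root replicate 3 left out, 144 of 176 (81.8%) did, beside 1.12%. Root replicates 1 and 2 give no such check, being nearly the same in their values. Chosen and not chosen transcripts had already been divided by the remaining libraries, which may not come from separate plants. These shares therefore describe how far the libraries repeat each other and are no independent test of the choice.

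A model of all transcripts compared the tissues on read counts. Each transcript was tested with edgeR's quasi-likelihood test and called where the difference was at least 2-fold with an adjusted p (Benjamini-Hochberg) under 0.05. Of the 147, 145 were called lower in leaf than in stem, where 14.4% of all tested transcripts were, and 145 lower in leaf than in root, where 26.6% were. Both calls held for 144, beside 6.3% of all tested. The rule used these contrasts, so the counts only describe the choice. The median log2 difference was -4.62 for leaf against stem and -4.20 for leaf against root, beside 0.02 and -0.27 over all tested transcripts.

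The exceptions were 3 transcripts with uneven or few leaf reads. Transcripts_9479 was not called against stem, and transcripts_24876 was not called against root. Transcripts_17078 (3904 bases), outside the naming rule and named after its values were seen, was called against neither. It had 7.09, 9.05 and 0 TPM in leaf, 33.6, 34.0 and 35.6 TPM in stem, and 38.8, 39.0 and 27.0 TPM in root. Leaf replicate 3 had no read of it, where the other leaf libraries together had 1157. Its reads were not whole numbers in 8 libraries.

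The balance of stem and root varied within the group. In mean TPM, stem exceeded root in 63 transcripts and was below it in 84. The means were within 2-fold of each other in 90 transcripts. Stem was over 2 times root in 26 (17.7%), against 18.9% of the transcripts not depleted in leaf. Root was over 2 times stem in 31 (21.1%), against 12.8%. All stem libraries lay above all root libraries for 47 transcripts (32.0%), against 24.7% of all tested transcripts, and below them for 67 (45.6%), against 51.9%. The rule used this contrast as well, so these shares describe the choice.

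At the stem-rich end was transcripts_18380 (1077 bases), with 4.32, 3.04 and 2.56 TPM in leaf, 95.3, 82.9 and 83.3 TPM in stem, and 21.0, 21.0 and 16.6 TPM in root. Its stem mean was 4.64 times its root mean. Transcripts_24876 (216 bases) followed, with a TPM ratio of 3.79, but on 2 leaf reads, 155 stem reads and 9 root reads. It was the 1 member with fewer than 10 reads in some root library, and no member had fewer than 10 in a stem library.

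At the root-rich end was transcripts_24768 (1513 bases), which had no leaf read, 18.8, 21.3 and 19.5 TPM in stem, and 115, 115 and 80.6 TPM in root. Its root mean was 4.92 times its stem mean. It and transcripts_24767 (1618 bases, named after its values were seen) were the 1 pair with neighbouring running numbers among the 147. Transcripts_24767 had 0.0967, 0 and 0.0771 TPM in leaf, 13.8, 11.9 and 12.0 TPM in stem, and 19.8, 19.97 and 10.6 TPM in root. What the order of the running numbers stands for is not given in the sources used here. Transcripts_30135 (352 bases) had 3.12, 1.57 and 3.60 TPM in leaf, 18.7, 19.4 and 19.5 TPM in stem, and 96.5, 94.9 and 92.4 TPM in root.

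The balance of stem and root depended on scale. In the edgeR model 39 of the 147 were called higher in stem than in root (20.3% of all tested) and 13 lower (31.8% of all tested), with a median log2 difference of 0.40, beside -0.46 over all tested transcripts. With library totals in place of TMM scaling, 19 were called higher in stem (13% of all tested) and 36 lower (42.1% of all tested). That change moved the median of all tested transcripts to -1.09. The direction of the balance thus differed between the scalings, and all tested transcripts moved with it. Of the 84 transcripts with a lower mean TPM in stem than in root, 27 were above root in stem in the model with TMM scaling. Only 5 of these 27 had an adjusted p under 0.05 in edgeR's quasi-likelihood test. None of the 63 with a higher mean TPM turned the other way. With library totals, 10 of the 84 and 13 of the 63 had the other direction, and 0 of either had an adjusted p under 0.05. Most of these turns are thus differences of sign not distinguished from no difference.

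Effective length, the length that Salmon divides by, differed between tissues, in the medians mostly for short transcripts. For the 39 members of up to 500 bases its median was 189 bases in leaf, 187 in stem and 115 in root. For the 71 members over 1000 bases it was 1430 bases in leaf, 1346 in stem and 1353 in root. Single longer members differed too. Transcripts_8559 (927 bases) had an effective length of 532 bases in leaf, 560 in stem and 896 in root. Transcripts_27016 (2083 bases) had 2597, 2446 and 1716 bases in the same order. Its leaf and stem values exceeded its full length, so effective length is not always a shortened length. With the deposited TPM, stem exceeded root in 13 of the 39 short members and in 32 of the 71 long ones. With TPM recomputed from the full transcript length, an alternative added after the data were seen, stem exceeded root in 21 of the 39 and in 20 of the 71. Recomputing also rescales every library to the same TPM sum, so a ratio can move where its own effective lengths are alike. The part of this rescaling in the ratios below was not tested. For transcripts_30135 the ratio of root to stem was 4.90 with the deposited TPM and 2.71 with full length. Other ratios grew: root over stem of transcripts_24768 was 4.92 with the deposited TPM and 7.23 with full length. Its effective length was 893 bases in stem and 964 in root. Stem over root of transcripts_24876 was 3.79 and 6.13 in the same order, while that of transcripts_18380 was 4.64 and 3.38, so these changed places at the stem-rich end. Stem over root of transcripts_8559 was 2.72 with the deposited TPM and 1.25 with full length, and that of transcripts_27016 was 1.79 and 1.86. Under full length 183 transcripts met the rule, of which 126 were among the 147.

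**Figure D4:**
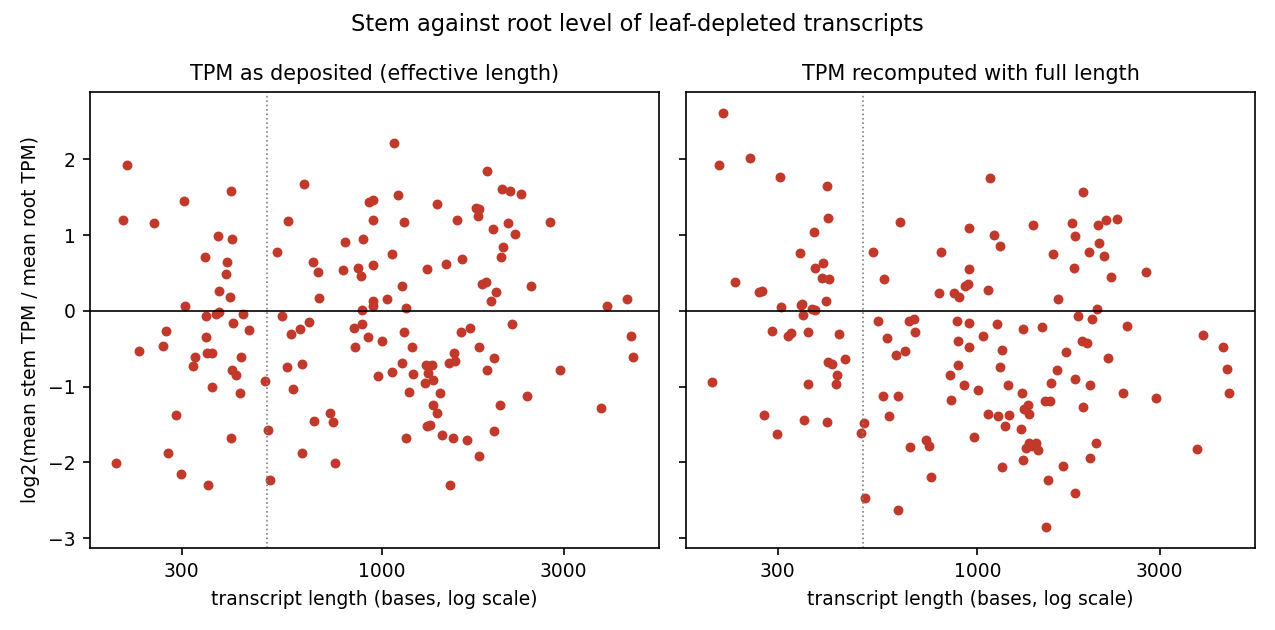
log2 of mean stem over mean root TPM of each leaf-depleted transcript against its length (logarithmic axis), with TPM as deposited (left) and recomputed with full transcript length (right). The dotted line marks 500 bases. To its left, 13 of 39 points lie above 0 in the left panel and 21 of 39 in the right panel.

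Root replicate 3 was below the average of root replicates 1 and 2 in 111 of the 147 transcripts (75.5%), compared with 81.3% of those not depleted in leaf, and within 2-fold of it in 141. The largest gap was in transcripts_32121 (531 bases). It had 2.53, 2.27 and 3.38 TPM in leaf, 144, 150 and 150 TPM in stem, and 143, 144 and 29.1 TPM in root replicates 1, 2 and 3. Transcripts_31118 (1931 bases) had no leaf read, 16.6, 17.5 and 20.6 TPM in stem, and 23.7, 23.0 and 10.03 TPM in root, where replicate 3 lay just above the minimum of the rule.

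Length was not a condition of the rule, but it enters TPM through the effective length. With TPM recomputed from full length, 28 of the 39 members of up to 500 bases still met the rule, and 66 of the 71 over 1000 bases. The leaf-depleted transcripts had a median length of 948 bases (range 202 to 4553), against 1501 bases in the 4677 transcripts not depleted in leaf. In the leaf-depleted group, 18 of 147 (12.2%) exceeded 2000 bases, against 1607 of 4677 (34.4%) in the others. From over 300 to 1000 bases the shares were 44.9% in the leaf-depleted transcripts and 25.3% in the others, and up to 300 bases they were 6.80% and 7.31%. Within the leaf-depleted transcripts, those with a smaller mean of at least 100 TPM had a median of 509 bases and those under 20 TPM a median of 1148 bases. The 12 without leaf reads had a median of 1570 bases. No test was run over transcripts, which are not replicates.

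**Figure D5:**
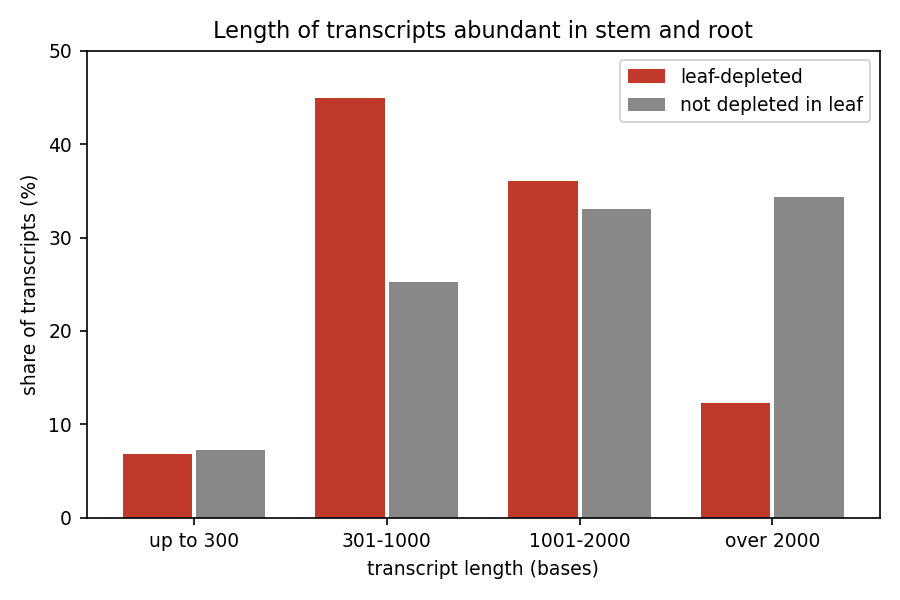
Share of transcripts (%) in 4 length classes (bases) among the 147 leaf-depleted transcripts (red) and the 4677 others that met the stem and root conditions (grey). Above 2000 bases the bars stand at 12.2% and 34.4%.

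The same rule with the tissues exchanged gave 280 transcripts of leaf and root depleted in stem and 614 of leaf and stem depleted in root. The leaf-depleted group was the smallest of the 3 at these limits. Its transcripts had a median smaller mean of 28.5 TPM, against 24.8 TPM in the stem-depleted and 44.4 TPM in the root-depleted transcripts. The depleted tissue stood at a median of 8.22% of the smaller mean in leaf-depleted, 12.0% in stem-depleted and 10.2% in root-depleted transcripts. Median lengths were 948 bases in leaf-depleted, 416 in stem-depleted and 1039 in root-depleted transcripts. No read in the depleted tissue was found for 12 of 147 leaf-depleted, 27 of 280 stem-depleted and 23 of 614 root-depleted transcripts. Read totals differed between tissues, and the differences between these groups were not tested.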

How the data were processed

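Poly(A)-selected RNA from leaf, stem and root was sequenced in 9 libraries. The submitters' processing notes name fastp 0.23.2 and Salmon 1.10.0 as the authors' tools; neither the reference transcripts nor the options are stated there. Each deposited table gives a TPM and an estimated count of reads per transcript, per the file headers, together with a length and an effective length. The members and lists were chosen with earlier results of these data known. The root mean is the mean of 2 values, the average of root replicates 1 and 2 and root replicate 3.

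Estimated counts were averaged for root replicates 1 and 2, rounded to whole numbers and fitted with edgeR 4.0.16 in R 4.3.3 on 8 samples: filtering by expression within tissues (24564 transcripts, all 147 members among them), TMM scaling and a robust quasi-likelihood fit with 1 mean per tissue. The model was tested on simulated data for leaf against stem only. The simulated tissues otherwise had the same levels, so that test does not bear on the scaling of stem against root. Alternatives used DESeq2 1.42.0, limma 3.58.1 on log2(TPM + 1) and log2(TPM + 0.1), other scalings, limits and filters, a block for replicate number and the omission of each library. A fold against 0 leaf reads was computed against 3 reads over the leaf libraries.

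Transcripts were named by rule: the 10 of highest smaller mean, the 6 of strongest depletion with a pseudocount of 0.1 TPM, the 2 highest and 2 lowest in stem over root, 3 on either side of the leaf limit, the 3 with the largest ratio of highest to lowest leaf library among those with 1 TPM or more as leaf mean (5 tied with a lowest value of 0, taken by running number), and the 2 with the largest gap between root samples. Marker and pathway lists were not used, since the files give no gene names.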

Additional observations from a re-analysis of the deposited data

How the results depend on the processing

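The number of transcripts chosen moved with the limits of the rule by construction. It was 233 at a minimum of 5 TPM and 88 at 20 TPM, 88 with leaf at most 10% of the smaller mean, and 90 with stem and root within 2-fold; omitting 1 library gave 147 to 176. The members' share of leaf TPM was 0.10002% at a minimum of 5 TPM, 0.0864% at 20 TPM and 0.0716% of reads; their share of stem TPM was 1.92%, 1.66% and 1.45%. With a library left out the shares were 0.0929% to 0.0967% in leaf, 1.78% to 1.81% in stem and 1.94% to 2.19% in root. Members called lower in leaf numbered 144 to 147 against stem, against root and against both in the settings that kept all libraries or took root replicate 3 as the only root sample, and, with a library left out, 145 to 146 against stem, 143 to 146 against root and 143 to 146 against both. Where root then had 1 sample, it is assumed to vary like the others. Stem against root depended on the scaling. Members called higher in stem were 19 with library totals, 25 with limma on log2(TPM + 1) and 22 on log2(TPM + 0.1); those called lower in stem were 36, 30 and 28, and 20 with DESeq2 and with its size factors in edgeR. Leaving out a library gave 33 to 40 higher and 12 to 16 lower. TMM is absent from the first 3 of these settings by construction. Of 987 recomputed leaf fold changes of 26 named transcripts, 12 lost and 11 gained an adjusted p under 0.05, and no direction changed. The rule required low leaf levels in these same libraries. The leaf directions and the counts called lower in leaf were therefore largely set by it. Of 494 recomputed stem-root fold changes, 19 lost and 23 gained it and 19 changed direction. Those 19 log2 differences of stem minus root were as follows. With library totals they were -0.13 in transcripts_23424, -0.55 in transcripts_30585, -0.24 in transcripts_31118, -0.10 in transcripts_31520 and -0.0570 in transcripts_6819. With limma on log2(TPM + 1) and log2(TPM + 0.1) they were -0.33 and -0.33 in transcripts_21908, -0.61 and -0.61 in transcripts_23424, -0.53 and -0.53 in transcripts_27006, -0.85 and -0.85 in transcripts_30585, and -1.32 and -1.32 in transcripts_31520. For transcripts_30585 they were also -0.0233 with DESeq2 and -0.0231 with its size factors in edgeR. Transcripts_31118 ranged from -0.0214, without root replicate 3, to 0.424, without stem replicate 2. Transcripts_8694 stood at 0.0146 where root replicate 3 was the sole root sample. On the 9 libraries as deposited, the replicate block gave 145 members called lower in leaf against stem, 145 against root and 144 against both, with 38 higher and 14 lower in stem than in root; without the block these were 147, 147, 147, 41 and 14. Each library's deviations from its tissue mean were compared between leaf and stem. Pairs with the same number had correlations of -0.042, 0.038 and 0.026. The closest stem library was replicate 3 for leaf replicate 1 (0.025) and replicate 1 for leaf replicate 3 (0.033). For leaf replicate 2 it was stem replicate 2 (0.038), the highest value of all pairs. With 3 replicates and values from -0.057 to 0.038, this comparison cannot decide whether leaf and stem libraries of a number share a plant. Few leaf reads limit the folds of the 22 members with 3 or fewer.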
